A study of Mus musculus with 6 samples.

Results

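The choroid plexus is the epithelium that hangs in the brain ventricles and secretes cerebrospinal fluid. Its genes were examined on 6 microarrays of young mouse brain. The members are the genes Ttr, Folr1, Clic6, Kl, Aqp1, Otx2, Sostdc1 and Prlr, chosen by name, with every probe set whose platform gene symbol is one of them. Of these 8 genes, 7 had probe sets under that symbol, 13 of 45101 probe sets in all and 7 of 18194 named genes. No probe set used here carried the symbol Prlr, and the prolactin receptor was not analysed here.

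Choroid plexus epithelial cells form a tight sheet around leaky capillaries, pump ions and bicarbonate, and let water follow through aquaporin channels. They also load the fluid with carrier proteins, folate and growth factors, and take up hormones from blood. Ttr is the classic marker of this epithelium in brain, where few other cells make its RNA, so it is often read as a sign of choroid plexus in a dissected piece.

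Each array measured RNA from 1 frontal cortical lobe of a 21-day-old mouse on a mixed C57BL/6 and 129 background. There was 1 array for each of a Dab1 knockout (DAB1 KO), a Reln knockout (REELIN KO), a double knockout of Apoer2 and Vldlr (APOER2-VLDLR KO), a Vldlr knockout (VLDLR KO), an Apoer2 knockout (APOER2 KO) and a wild type (WT). The double knockout, both single knockouts and the WT came from matings of mice heterozygous for both receptors, and the Dab1 and Reln knockouts from matings of their own heterozygotes. Reelin, its receptors Vldlr and Apoer2 (gene symbol Lrp8) and the adaptor Dab1 form the signalling pathway that places cortical and cerebellar neurons. The Dab1, Reln and double knockouts are called reeler models here, and the Vldlr knockout, Apoer2 knockout and WT the comparison arrays. The labels do not say whether any deletion was confined to some cells. Values are MAS5 signals, a linear brightness scaled to a like mean on every array. Differences are given on the scale log2(signal + 28.1), the added 28.1 being the 25th percentile over every reading, and changes of dim genes are understated by it.

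Median signal was 86.5 to 92.3 across arrays, and the brightest of 27 probe sets for bacterial genes, used here as the level without a target, read 28.4 to 39.6. No genotype had a replicate, and precision is limited by there being 6 arrays in all. The Reln knockout array read 79.9 for Reln against 1498 to 1880 on the other arrays, and Lrp8 read 13.7 on the double and 4.2 on the Apoer2 knockout array against 342.4 to 379.8 elsewhere. Vldlr read 185.6 on the double and 187.3 on the Vldlr knockout array against 357.6 to 551.6 elsewhere, while Dab1 read 478.5 on the Dab1 knockout array against 516.4 to 626.0 elsewhere. The Apoer2 knockout array stood apart: Xist read 124.9 there against 3368 to 4006 elsewhere, and the Y-linked gene Eif2s3y 367.5 against 0.6 to 7.7. The growth hormone gene Gh read 3704.8 there against 13.1 to 32.4 elsewhere. Every animal is labelled male, and the Xist and Eif2s3y readings of all other arrays, WT included, go against that label. By these genes, sex differs between the Apoer2 knockout array and every other array. The tissue label is cortex, and 6 of 6 measured cortical marker genes read above the controls on every array. Among them were Tbr1 (330.4 to 403.5) and the glutamate transporter gene Slc17a7 (2825 to 4730). Genes listed for other regions did so too: 14 of 15 thalamic, 12 of 17 hypothalamic, 12 of 12 hippocampal and 12 of 15 cerebellar granule cell genes. The controls lay below the median signal of every array, and the share of all genes above them was not counted. Such counts, here and below, therefore have no background beside them. The lists also overlap: Zic1 is on the thalamic and granule cell lists, and Neurod6 on the cortical and hippocampal lists. What the pieces held besides cortex was not tested.

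Promoter sequences from RefSeq's promoter table for GRCm38.p6 were searched for 4 members, Kl, Aqp1, Otx2 and Prlr, with 9 starts. Ttr was left out of the counts of members and its promoter is not reported here, and no promoter sequence of Folr1, Clic6 or Sostdc1 was available. The counts of matches among members therefore do not cover these genes. Otx2 is a homeodomain factor that specifies the choroid plexus and is still made by its cells, and factors of its class bind the word TAATCC. That word, on either strand as TAATCC or GGATTA, which do not overlap each other, was searched in the 250 bases before each start. It stood before 1 of the 9 starts, 1 of 4 listed starts of Otx2 itself, and at 6.25% of all 32851 promoters in the table. The Otx2 window is shown with the match in capitals, 211 bases before the start, beside the windows of Kl and Aqp1, which hold no match and whose signals are described below. A match is only a description of letters, and no binding was measured.
Otx2 promoter, chr14:48665110-48665359, minus strand: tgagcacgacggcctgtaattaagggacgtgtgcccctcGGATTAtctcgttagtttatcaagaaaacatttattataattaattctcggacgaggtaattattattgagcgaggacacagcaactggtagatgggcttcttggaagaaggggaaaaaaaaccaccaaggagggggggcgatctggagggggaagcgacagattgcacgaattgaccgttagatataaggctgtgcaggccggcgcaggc
Kl promoter, chr5:150952357-150952606, plus strand: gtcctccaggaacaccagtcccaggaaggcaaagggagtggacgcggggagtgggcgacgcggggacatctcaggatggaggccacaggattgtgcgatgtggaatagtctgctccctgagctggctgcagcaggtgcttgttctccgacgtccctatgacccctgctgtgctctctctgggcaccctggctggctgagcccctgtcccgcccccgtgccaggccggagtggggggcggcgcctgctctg
Aqp1 promoter, chr6:55336049-55336298, plus strand: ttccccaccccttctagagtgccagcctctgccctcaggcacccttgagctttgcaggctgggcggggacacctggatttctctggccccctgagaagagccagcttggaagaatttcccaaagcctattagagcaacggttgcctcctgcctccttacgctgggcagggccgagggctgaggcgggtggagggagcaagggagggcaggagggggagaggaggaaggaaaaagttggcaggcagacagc

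Transthyretin, encoded by Ttr, carries thyroid hormone and retinol-binding protein and is the most abundant secreted product of the epithelium. At its main probe set, the brightest outside those of the lowest specificity class (_x_at), Ttr read 6435.6 on the Dab1, 6774.0 on the Reln, 6872.6 on the double, 5158.9 on the Vldlr and 7609.9 on the Apoer2 knockout array, against 7724.2 on the WT array. Ttr was therefore bright on all 6 arrays, lowest on the Vldlr knockout array and highest on the WT and Apoer2 knockout arrays. The highest array exceeded the lowest 1.5-fold. The other 3 Ttr probe sets spanned 1.20-fold to 1.27-fold, and at each of them the Vldlr or the Dab1 knockout array was lowest and the Apoer2 knockout array highest. Pearson's r between Ttr probe sets over the 6 arrays was 0.80 to 0.94. The brightest values of any probe set were 9216 to 10814 per array, so Ttr lay near the top of the measured range. Whether that compressed its differences was not tested.

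Folr1, which encodes the folate receptor that moves folate across the epithelium into the fluid, ran in nearly the same order over a like span. Folr1 read 143.7 on the Dab1, 164.9 on the Reln, 162.6 on the double, 129.9 on the Vldlr and 193.8 on the Apoer2 knockout array, against 174.7 on the WT array. It was again lowest on the Vldlr knockout array, next lowest on the Dab1 knockout array and high on the WT and Apoer2 knockout arrays, with 1.49-fold between highest and lowest. Clic6, a member of the chloride intracellular channel family that is rich in this epithelium, read 313.1 on the Dab1, 421.3 on the Reln, 395.5 on the double, 297.8 on the Vldlr and 410.8 on the Apoer2 knockout array, against 486.7 on the WT array. The same pair of arrays, Vldlr and Dab1, was low, and the span was 1.63-fold. A dimmer Clic6 probe set ran the opposite way: it read 158.2 on the Dab1, 185.0 on the Reln, 180.2 on the double, 211.4 on the Vldlr and 131.9 on the Apoer2 knockout array, against 125.3 on the WT array (r = -0.64 with the main one over 6 arrays). The Clic6 pattern therefore holds for its brighter probe set only, and which of them follows the transcript was not tested.

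Kl, which encodes klotho, the co-receptor for the hormone FGF23 and a protein shed into the fluid, was dimmer. Kl read 48.5 on the Dab1, 100.3 on the Reln, 65.1 on the double, 62.6 on the Vldlr and 82.3 on the Apoer2 knockout array, against 112.0 on the WT array. Here the Dab1 knockout array was lowest and the WT highest, 2.31-fold apart, and all readings stood above the highest bacterial control of their array (39.6 on the Dab1 knockout array). A second Kl probe set read 3.0 to 8.6 and lay below the controls on every array, so it gave no level.

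Aqp1, the water channel of the apical membrane of the epithelium, was almost flat, at 85.2 on the Dab1, 96.4 on the Reln, 84.5 on the double, 77.3 on the Vldlr and 79.8 on the Apoer2 knockout array, against 82.7 on the WT array. The reeler models averaged 88.7 ± 6.7 and the comparison arrays 79.9 ± 2.7 (SD, n = 3 each), and the classes did not overlap. Otx2 read 8.6 on the Dab1, 55.5 on the Reln, 53.0 on the double, 68.7 on the Vldlr and 97.1 on the Apoer2 knockout array, against 63.6 on the WT array. It too did not overlap between classes, at 39.0 ± 26.4 in reeler models and 76.5 ± 18.1 in comparison arrays (SD, n = 3 each). The Dab1 reading lay below that array's highest control (39.6), so it is a bound more than a level. Classes did not overlap for 2 of the 7 members, with 15.4% of all 18194 genes doing the same.

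Sostdc1, a secreted antagonist of Wnt and BMP signals, departed from the other members. It read 138.8 on the Dab1, 47.6 on the Reln, 62.6 on the double, 60.6 on the Vldlr and 107.3 on the Apoer2 knockout array, against 107.1 on the WT array. The Dab1 knockout array, low for Ttr, Folr1, Clic6, Kl and Otx2, was thus the highest for Sostdc1, and the Reln knockout array the lowest. A second Sostdc1 probe set read 99.0 on the Dab1, 30.3 on the Reln, 47.5 on the double, 75.9 on the Vldlr and 52.1 on the Apoer2 knockout array, against 74.5 on the WT array (r = 0.72 with the first over 6 arrays). Its highest and lowest arrays were the same, but its Vldlr reading was at the WT level and its Apoer2 reading below it, unlike those of the first. The Reln reading there lay below that array's highest control (32.1).

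**Figure D1:**
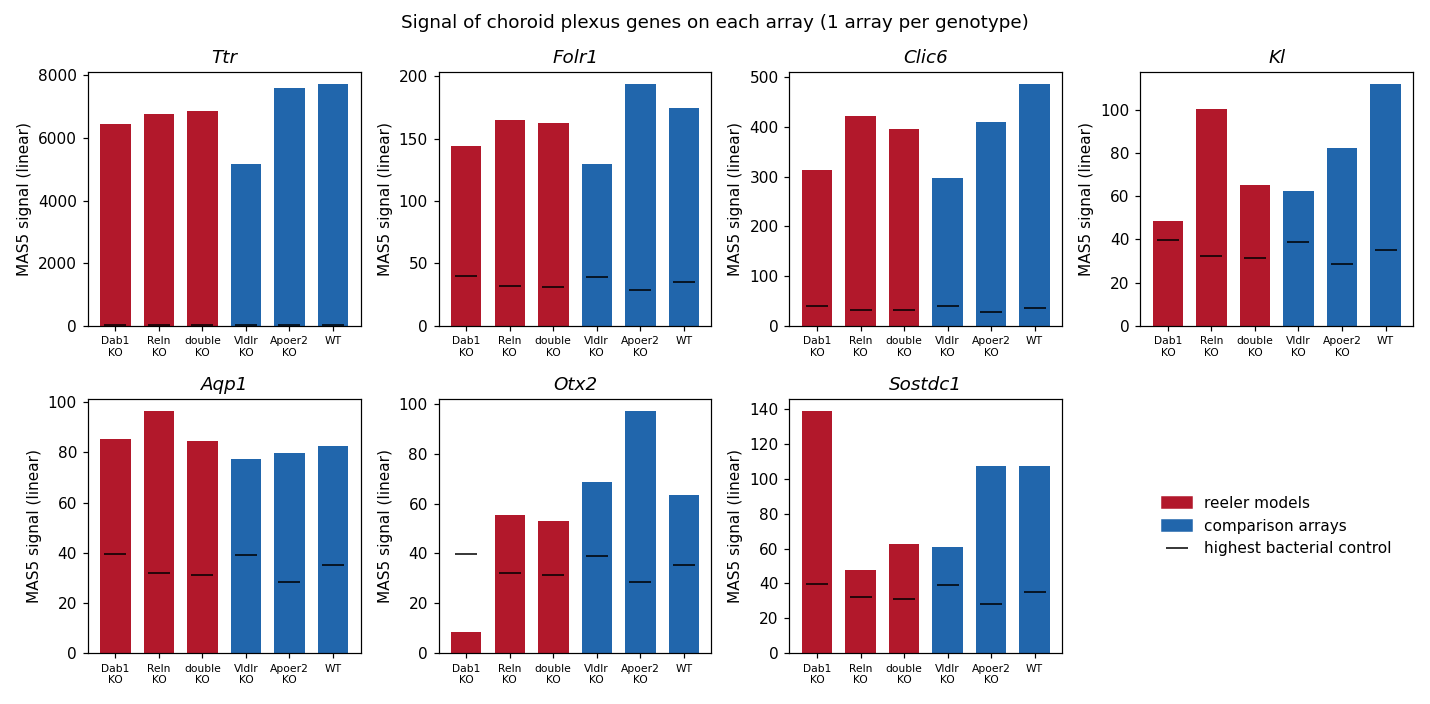
MAS5 signal (linear, each axis from 0) of 7 choroid plexus genes at the probe set used for the gene, with 1 bar per array in the order Dab1, Reln and double knockout (reeler models, red), then Vldlr knockout, Apoer2 knockout and WT (comparison arrays, blue). Black ticks mark the highest bacterial control of each array; Ttr, Folr1 and Clic6 are lowest on the Vldlr knockout array (5158.9, 129.9 and 297.8), and Otx2 on the Dab1 knockout array (8.6) lies below its tick.

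The reeler models were set against the comparison arrays to ask whether loss of reelin signalling went with a change in these genes. No member passed the test between the classes. Ttr averaged 6694.1 ± 229.2 in reeler models and 6831.0 ± 1449.2 in comparison arrays, Folr1 157.1 ± 11.6 and 166.1 ± 32.8, and Clic6 376.6 ± 56.5 and 398.4 ± 95.1, in the same order (SD, n = 3 each). The classes overlapped for all 3. The fitted log2 differences, reeler models minus comparison arrays, were -0.006 for Ttr (95% interval -0.325 to 0.313, adjusted p = 0.99), -0.056 for Folr1 (-0.405 to 0.292, adjusted p = 0.91) and -0.060 for Clic6 (-0.465 to 0.345, adjusted p = 0.918) in limma. In bulk tissue, fewer cells of a type and less RNA per cell cannot be told apart. Markers of cerebellar granule cells moved with the classes: the 12 of 15 past the filter summed to 4224 to 5689 on reeler models and 12859 to 16183 on comparison arrays, and 12 of 15 read above the controls on every array. Their part in the choroid plexus values was not tested.

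Only Ttr, Folr1 and Clic6 passed the signal filter, a mean of at least 89.0, and 0 of these 3 members passed an adjusted p of 0.05 in limma, with 0.13% of 11499 tested genes called (members at an unadjusted p of 0.05: 0). The median log2 difference was -0.056 over these 3, against 0.008 over all tested genes. Without the filter, 0 of 7 members passed, with 0.066% of 18194 genes called and 0 members at an unadjusted p of 0.05. There the log2 difference was -0.20 for Kl (adjusted p = 0.82), 0.11 for Aqp1 (0.832), -0.72 for Otx2 (0.547) and -0.17 for Sostdc1 (0.896). With dim readings raised to the highest control of their array, an alternative chosen after seeing the data, the Otx2 difference was -0.42 (unadjusted p = 0.0231, adjusted p = 0.501 in limma). Leaving out the Vldlr knockout array gave log2 differences of -0.20 for Ttr (unadjusted p = 0.0296, adjusted p = 0.373 in limma), -0.20 for Folr1 and -0.24 for Clic6. Leaving out the Apoer2 knockout array, which stood apart, gave 0.08 for Ttr, 0.05 for Folr1 and -0.03 for Clic6. Leaving out the WT array gave 0.09 for Ttr, -0.02 for Folr1 and 0.09 for Clic6.

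Each mutant array was then set against the WT array, as a description with no test. At the main probe sets, the Vldlr knockout array had log2 differences of -0.58 for Ttr, -0.36 for Folr1, -0.66 for Clic6, -0.63 for Kl and -0.61 for Sostdc1. In ratios of signal, these members stood at 0.67 (Ttr), 0.74 (Folr1), 0.61 (Clic6), 0.56 (Kl) and 0.57 (Sostdc1) of WT. Other probe sets of the same genes gave smaller or opposite values: 0.80 to 0.87 of WT at the other 3 of Ttr, 1.69 at the dimmer one of Clic6 and 1.02 at the second one of Sostdc1. With all probe sets of a gene averaged, the log2 differences were -0.34 for Ttr, -0.01 for Clic6, -0.36 for Kl and -0.29 for Sostdc1, while Folr1 has 1 probe set. Aqp1 (-0.07) and Otx2 (0.08) barely differed from WT on this array. Below WT stood 6 of 7 members on the Vldlr knockout array (51.8% of all genes), 5 on the Dab1 (49.1%), 6 on the Reln (48.4%), 6 on the double (47.1%) and 4 on the Apoer2 knockout array (49.2%). At these probe sets the Vldlr knockout array was the lowest of the 6 for 4 of 7 members, Ttr, Folr1, Clic6 and Aqp1 (17.3% of all genes), and for all 3 that passed the filter (15.5% of genes past it).

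The Dab1 knockout array had differences from WT of -0.26 for Ttr, -0.24 for Folr1, -0.59 for Clic6, -0.87 for Kl and -1.32 for Otx2, with Sostdc1 at 0.30 and Aqp1 at 0.03. On this log2 scale, with its added constant, Otx2 there was the only member at least 2-fold from WT on any array, 1 of 7. On that array 2.24% of all genes were as far away in either direction. On the same scale the other 4 arrays had 0 of 7 members that far away. The shares of all genes were 3.15% on the Reln, 2.12% on the double, 1.68% on the Vldlr and 1.46% on the Apoer2 knockout array. In ratios of signal, Kl on the Dab1 (0.43 of WT) and Sostdc1 on the Reln knockout array (0.44) were also beyond 2-fold. Both readings stood above the highest control of their array, unlike the Otx2 reading on the Dab1 knockout array. With the Otx2 reading raised to the control level its difference was -0.44. On the Reln knockout array Sostdc1 stood lowest (-0.84), while Ttr (-0.19), Folr1 (-0.07), Clic6 (-0.20), Kl (-0.13) and Otx2 (-0.13) lay nearer to WT. On the double knockout array Kl (-0.59) and Sostdc1 (-0.58) were the furthest from WT, followed by Clic6 (-0.28). On the Apoer2 knockout array Sostdc1 (0.00) and Ttr (-0.02) were closest to WT, with Folr1 at 0.13, Otx2 at 0.45 and Kl at -0.34. The 5 comparisons share the WT array, so a high WT reading lowers every mutant's difference, and WT was the highest array for 3 of 7 members (17.5% of all genes). Against the mean of the comparison arrays other than the array itself, several directions turned. Ttr then stood at 0.01 on the Reln, 0.03 on the double and 0.27 on the Apoer2 knockout array, and Clic6 at 0.10, 0.02 and 0.10. Folr1 (0.01) and Kl (0.20) turned on the Reln knockout array. On the Vldlr knockout array Otx2 turned to -0.15, while Ttr (-0.57), Folr1 (-0.43), Clic6 (-0.54), Kl (-0.46) and Sostdc1 (-0.61) stayed below.

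**Figure D2:**
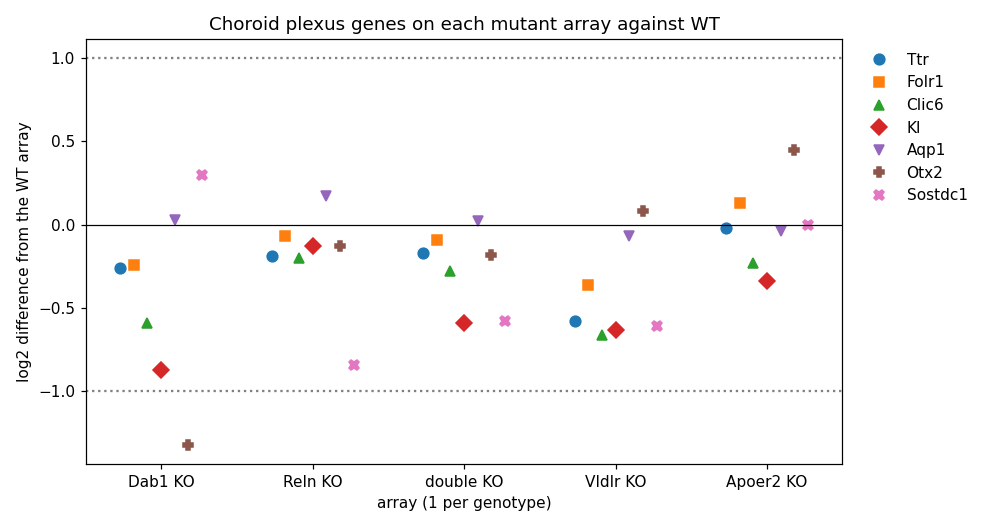
Difference from the WT array on the scale log2(signal + 28.1), for 7 choroid plexus genes on each of 5 mutant arrays, 1 point per gene and array. Dotted lines mark a 2-fold difference on this scale, which only Otx2 on the Dab1 knockout array passes (-1.32). On the Vldlr knockout array Ttr, Clic6, Kl and Sostdc1 lie between -0.66 and -0.58.

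The receptor cross allows the loss of Vldlr to be read with Apoer2 present (Vldlr knockout minus WT) and lacking (double minus Apoer2 knockout). The log2 differences were -0.58 and -0.15 for Ttr, -0.36 and -0.22 for Folr1, -0.66 and -0.05 for Clic6, -0.63 and -0.24 for Kl and -0.61 and -0.58 for Sostdc1, with Apoer2 present first. These 5 of 7 members were lower with loss of Vldlr in both settings, as were 26.7% of all genes. The count holds at the main probe sets: the dimmer Clic6 probe set gave 0.64 and 0.38, and the second Sostdc1 probe set 0.02 and -0.09. Each difference rests on 1 array a side and could not be tested. Loss of Apoer2 gave -0.02 for Ttr, 0.13 for Folr1 and -0.23 for Clic6 with Vldlr present (Apoer2 knockout minus WT), and 0.41, 0.27 and 0.38 with Vldlr lacking (double minus Vldlr knockout). For this loss the dimmer Clic6 probe set gave 0.06 and -0.20. Loss of 1 receptor had opposite signs with and without the other for 5 of 7 members at the main probe sets, as for 63.8% of all genes. Both readings share arrays with those for Vldlr. The Apoer2 knockout array, which stood apart in Xist, Eif2s3y and Gh, is a side of Apoer2 knockout minus WT and of double minus Apoer2 knockout. In those differences, loss of a receptor cannot be told apart from what set that array apart.

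Whether the members moved together was asked over the 6 arrays. The 4 pairs with the highest r involved Ttr, Folr1, Clic6 and Kl: Pearson's r was 0.93 for Ttr with Folr1 (Spearman's rho 0.89), 0.86 for Ttr with Clic6 (rho 0.83), 0.84 for Folr1 with Clic6 (rho 0.83) and 0.88 for Clic6 with Kl (rho 0.94). The two-sided exact permutation p over the orders of the 6 arrays was 0.00833, 0.025, 0.0347 and 0.0236 for r in that order, and 0.0333, 0.0583, 0.0583 and 0.0167 for rho. After Benjamini-Hochberg adjustment over the 21 pairs, 0 pairs passed 0.05 by r or by rho. For r these 4 pairs had adjusted exact p-values of 0.175, 0.175, 0.182 and 0.175, and for rho all 4 had 0.306. They were the pairs with an unadjusted exact p below 0.05 for r. The lowest exact p that 6 arrays allow is 0.00139. Leaving out the 2 arrays farthest from the median of the first gene gave r of 0.99 for Ttr with Folr1, 0.66 for Ttr with Clic6, 0.99 for Folr1 with Clic6 and 0.86 for Clic6 with Kl. Without the Apoer2 knockout array r was 0.95, 0.88, 0.97 and 0.88 for these pairs.

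Averaging all probe sets of a gene changed this picture in both directions. Ttr with Folr1 then had an r of 0.99 (adjusted exact p = 0.0292) and was the 1 pair to pass. Ttr with Clic6 dropped to 0.15, and Folr1 with Clic6 to 0.10, since the opposite Clic6 probe set enters the mean. Clic6 with Kl also dropped, to 0.52, and Clic6 with Sostdc1 had an r of -0.92 (adjusted exact p = 0.102). At the main probe sets Sostdc1 had r of 0.38 with Ttr, 0.20 with Folr1, -0.02 with Clic6 and -0.23 with Kl. Otx2 had 0.19 with Ttr and 0.60 with Kl, and the nearly flat Aqp1 had 0.25 with Ttr and -0.37 with Sostdc1. Of all 21 pairs, 16 had an r above 0, with a median of 0.33.

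**Figure D3:**
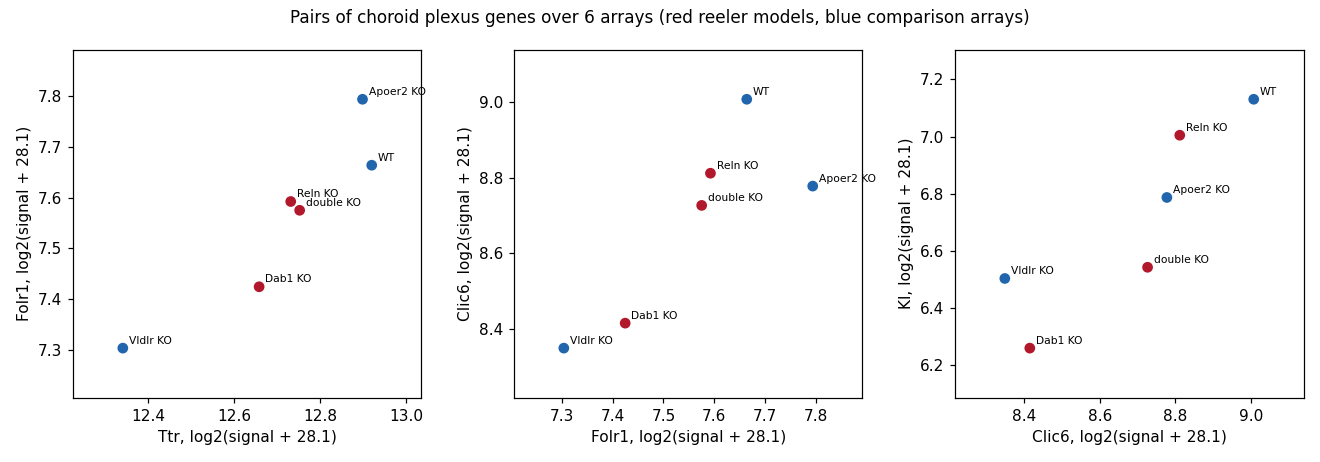
Signals of Ttr and Folr1, Folr1 and Clic6, and Clic6 and Kl on each of the 6 arrays, both axes as log2(signal + 28.1), with reeler models in red and comparison arrays in blue. The Vldlr and Dab1 knockout arrays lie at the low end and the WT array at or near the high end in each panel (r = 0.93, 0.84 and 0.88).

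Other choroid plexus genes, taken from lists of transporters, secreted proteins and epithelial genes, give a wider view. Not all of them are particular to the choroid plexus in bulk brain. Cldn5 is also on a list of endothelial genes, Foxj1 on the ependymal list and Igf2 on the meningeal list. Of the other choroid plexus genes, 86 were measured and 60 passed the signal filter. None of the 60 passed an adjusted p of 0.05 in limma between reeler models and comparison arrays, with 0.13% of tested genes called, and 11 did so at an unadjusted p of 0.05 (11% of all tested genes were at that level). The median log2 difference was -0.003, and 31 of 60 lay below 0 (48.1% of all tested genes). The lowest adjusted p belonged to Prelp (log2 difference -0.49, adjusted p = 0.317), a matrix protein gene, followed by the sulfate transporter gene Slc13a4 (-0.39, 0.341).

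On single arrays, 17 of these 60 genes were lowest on the Vldlr knockout array, with 15.5% of all genes past the filter lowest there. The transport list held most of them, 11 of 26, against 2 of 17 secreted and 4 of 17 epithelial genes. They included the potassium channel gene Kcnj13, at 140.7 on the Dab1, 158.9 on the Reln, 131.4 on the double, 110.1 on the Vldlr and 182.3 on the Apoer2 knockout array, against 173.5 on the WT array. The carbonic anhydrase gene Car14, which supports bicarbonate transport, read 213.6 on the Vldlr knockout array and 288.6 to 425.9 on the other 4 mutant arrays, against 365.1 on the WT array. The bicarbonate exchanger gene Slc4a2 read 268.7 on the Vldlr knockout array, against 457.9 on the WT array, and the tight junction gene Cldn2 110.9 against 137.9. These 4 genes were picked out after their values were seen. As a median over the transport list, the Vldlr knockout array stood 0.13 below the mean of the 6 arrays on the log2 scale and the Apoer2 knockout array 0.09 above it, while the secreted list stood at 0.06 on the Vldlr knockout array and the epithelial list ran from -0.06 to 0.06 over the arrays.

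The widest spans among the other choroid plexus genes did not follow the order of Ttr. Among transporters, the carbonic anhydrase gene Car2, also strong in oligodendrocytes, read 1338 on the Reln knockout array against 3262 on the WT array. Rbp4, the retinol carrier that binds transthyretin, read 918.7 on the Reln knockout array against 452.1 on the WT array, and the organic anion transporter gene Slc22a8 read 103.8 there against 242.5. Among secreted and matrix genes, Col9a3, also a myelinating cell gene, read 391.9 on the Dab1 and 59.7 on the Reln knockout array, against 213.9 on the WT array. Ace, which encodes angiotensin-converting enzyme, read 65.1 on the Dab1 and 353.0 on the Reln knockout array, against 209.6 on the WT array. Ecrg4 read 98.1 on the double knockout array against 268.6 on the WT array. Among epithelial genes, Baiap2l1 read 200.7 on the Dab1 and 376.4 on the Reln knockout array and 28.9 to 34.2 on the other 3 mutant arrays, against 68.9 on the WT array. The leptin receptor gene Lepr read 32.9 on the Dab1 knockout array against 99.2 on the WT array, and Perp, a desmosome gene, 216.0 on the Reln knockout array against 135.0 on the WT array.

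The mean of Ttr, Folr1 and Clic6, each centred on its own mean over the arrays, stood at -0.15 on the Dab1, 0.06 on the Reln, 0.03 on the double, -0.32 on the Vldlr and 0.17 on the Apoer2 knockout array, and at 0.21 on the WT array. The kept genes whose signals were most like this profile were Mcm4, a replication helicase gene (r = 0.995 over 6 arrays), Bclaf3 (0.991), Hr (0.985), LTO1 (0.977), Slc5a6, a vitamin transporter gene (0.975), Ttc21b, a cilium gene (0.975), Rprd1b (0.974), Crebl2 (0.973), Tmed4 (0.971) and Gtpbp2 (0.970). None of these 10 is on the choroid plexus lists. An r above 0.5 with the profile was found for 16 of the 60 other choroid plexus genes (26.7%), led by Kcnj13 (0.90, 123rd of 11496 genes), Car14 (0.84), Slc4a2 (0.84) and the iron oxidase gene Cp (0.84), and for 16.7% of all genes. A profile of 6 arrays thus resembles many genes that are not on the choroid plexus lists, and all values of an array share its RNA preparation and scaling.

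Neighbouring tissues were read from marker lists. Of 22 measured ependymal and cilium genes, 13 read above the controls on every array and 8 passed the filter. Their summed signal was 1034 to 1085 on reeler models and 914.2 to 1059 on comparison arrays, lowest on the Vldlr knockout array. Dnah11 and Iqcg lay below the controls on all arrays. Of 19 meningeal genes, 15 passed the filter, with a summed signal of 10564 to 11548 on reeler models and 10375 to 11892 on comparison arrays. Ptgds alone read 6100 to 7043 of this on reeler models and 5794 to 6710 on comparison arrays. The median of the meningeal list, centred on the mean of the 6 arrays, was lowest on the Dab1 (-0.12) and stood at -0.02 on the Vldlr knockout array. Col1a1, a fibroblast collagen gene of this list, read 76.5 on the double knockout array against 208.1 on the WT array. The part of these tissues in the choroid plexus values was not tested. Defining choroid plexus markers were not all measurable: Tmem72 and Trpv4 lay below the controls on every array.

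**Figure D4:**
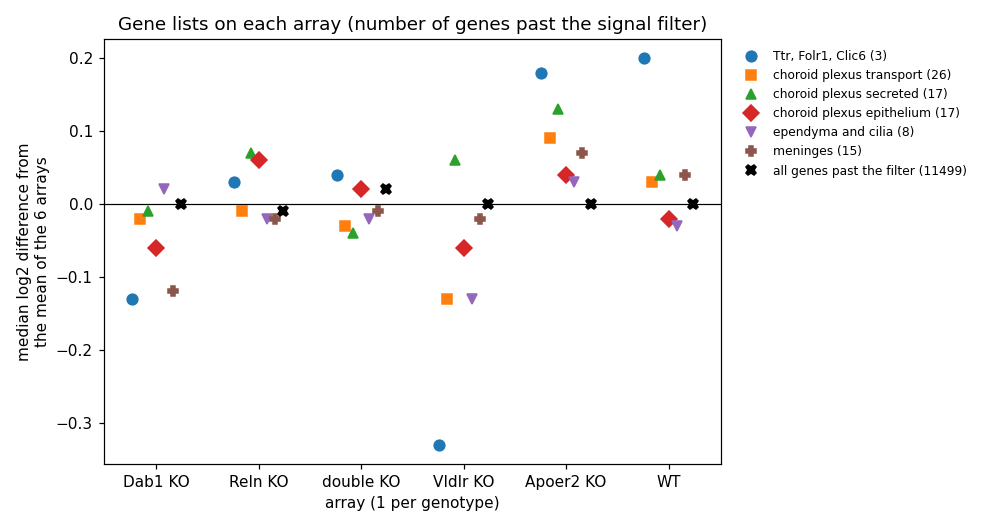
Median log2 difference from the mean of the 6 arrays for Ttr, Folr1 and Clic6 together, for 3 lists of other choroid plexus genes, for ependymal and meningeal genes and for all genes past the signal filter, on each array. The median of Ttr, Folr1 and Clic6 is lowest on the Vldlr knockout array (-0.33) and highest on the WT array (0.20), and the transport list is also lowest on the Vldlr knockout array (-0.13).

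Genes related to the members by family or function were read from lists of their own. Among family members, 10 of 23 measured passed the filter and 0 passed an adjusted p of 0.05 in limma, with 0.13% of tested genes called. At an unadjusted p of 0.05 there were 2, with 11% of tested genes at that level. The widest of them, the water channel gene Aqp11, read 123.7 on the Dab1, 48.2 on the Reln, 141.5 on the double, 91.8 on the Vldlr and 87.8 on the Apoer2 knockout array, against 90.4 on the WT array. Folr2, the folate receptor of macrophages, read 67.9 on the Vldlr knockout array and 99.3 to 115.8 on the other 4 mutant arrays, against 112.5 on the WT array. The astrocyte water channel gene Aqp4 read 846.5 on the double knockout array against 1871 on the WT array. Sost, the closest relative of Sostdc1, lay below the controls on all arrays. Among partners, 18 of 25 passed the filter and 0 passed the limma test (0.13% of tested genes), with 2 at an unadjusted p of 0.05 (11% of tested genes). Rbp4, given above, was the widest. The folate carrier genes Slc19a1 (303.5 to 382.3) and Slc46a1 (61.1 to 122.0), the klotho partner Fgfr1 (479.2 to 897.3) and the prolactin signalling kinase gene Jak2 (354.7 to 518.9) are given by their range over the arrays.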

How the data were processed

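Total RNA of 1 cortical lobe per mouse was hybridised as biotinylated cRNA, per the labels' protocols. The authors deposited linear signal intensities, and the submitters' processing notes name MAS5 and Affymetrix Expression Console. No version or genome build is named in the sources used here. The mean of each array, trimmed by 2% at both ends, was 249.4 to 249.5.

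Gene names came from the platform annotation: of 45101 probe sets, 34958 have 1 symbol, 932 several and 9211 none here. Gene IDs matched RefSeq for 34754. Each gene took its brightest probe set, with _x_at probe sets last. The signal filter, set at the median probe set's mean of 89.0, left 11499 of 18194 genes. Reeler models and comparison arrays were compared on log2(signal + 28.1) with limma 3.58.1 in R 4.3.3, trended prior, Benjamini-Hochberg adjustment over all kept genes. Genotypes of a class stand in for replicates, so p-values measure only the spread between these 6 arrays. On simulated data of 11499 genes, 82.0% of 200 genes changed 2-fold were recovered, with 12 false calls. The simulation drew independent normal noise for each gene past the filter, took its fitted spread as the true one and held no shared array effects. It was not run for smaller changes or for genes below the filter, so it gives no power for the differences fitted here. Correlations used exact permutation tests in Python 3.11.15.

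Named genes were all members, the 3 widest genes of each choroid plexus list, the 10 most alike in profile, the widest meningeal gene and any family member or partner past the filter. Kcnj13, Car14, Slc4a2, Cldn2, Cp, Prelp, Slc13a4, Ptgds and genes named as below the controls were chosen after their values were seen. Members and lists were chosen with earlier results of these data known. Alternatives were pseudocounts of 1 and 89.4, quantile normalization, a filter at 297.5 or none, averaged probe sets, single probe sets, no trend, a cross covariate, WT alone as comparison, the mean of the comparison arrays in place of WT and leaving out each array. Raising dim readings to the controls was added after seeing the data.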

Additional observations from a re-analysis of the deposited data

Results flagged for a closer look

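At the main probe sets, loss of 1 receptor had opposite signs in 5 members depending on whether the other receptor was present, and this difference was not tested, since each setting holds 1 array a side. The difference between settings (double minus Apoer2 knockout, less Vldlr knockout minus WT) was 0.43 for Ttr on the log2 scale, 0.61 for Clic6, 0.38 for Kl, 0.13 for Aqp1 and -0.70 for Otx2. Opposite signs of this kind were found for 63.8% of all genes, so the count of members is near the background. Ttr had -0.02 for loss of Apoer2 with Vldlr present and 0.41 with Vldlr lacking, and Clic6 had -0.23 and 0.38. The dimmer Clic6 probe set had the reverse signs, at 0.06 and -0.20, so the Clic6 difference holds at its main probe set only. The other 3 Ttr probe sets had the same sign in both settings, at 0.01 and 0.21, 0.03 and 0.18, and 0.14 and 0.14. Aqp1 is counted through -0.07 and 0.06 for loss of Vldlr. Otx2 had 0.08 for loss of Vldlr with Apoer2 present and -0.63 with Apoer2 lacking. Every difference between settings includes the Apoer2 knockout array, which stood apart in Xist, Eif2s3y and Gh. Loss of a receptor cannot be told apart there from what set that array apart.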

How the results depend on the processing

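Over the alternatives run, 0 members and 0 other choroid plexus genes passed the limma threshold in the class comparison, as in the values reported, whichever array was left out. At an unadjusted p of 0.05, 1 member did so without the Vldlr knockout array (Ttr, 11.9% of tested genes) and 1 with dim readings raised (Otx2, 8.77% of genes). The log2 difference between classes ranged from -0.21 to 0.09 for Ttr, -0.20 to 0.05 for Folr1 and -0.36 to 0.09 for Clic6, on both sides of 0. No pair of members passed with 1 array left out (range 0 to 0), where a lone pair of 5 arrays cannot go below an adjusted exact p of 0.175; with the mean of all probe sets 1 pair passed. Members at least 2-fold from WT on the Dab1 knockout array numbered 2 with a pseudocount of 1, 0 with the median as pseudocount and 0 with dim readings raised to the controls. On the Reln knockout array there was 1 with a pseudocount of 1. Kl, Aqp1, Otx2 and Sostdc1 were tested only without the signal filter. No paired analysis was possible because each genotype has 1 array. Readings near the bacterial controls limit Kl, Otx2 and Sostdc1, while Aqp1 (mean 84.3) stood above the controls on every array but below the signal filter.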
